A study of Saccharomyces cerevisiae with 32 samples.

Results

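The small subunit processome is the large nucleolar particle in which the precursor of the small ribosomal subunit is first assembled, and 41 of its protein genes in budding yeast are described here. The members were a named list of assembly factors of the 40S subunit, found by gene symbol in the annotation of the array. All 41 were present, each with 1 probe set, among 5449 S. cerevisiae genes, and all 41 were above background and among the 5377 genes tested. They were followed on 32 expression arrays of CEN.PK113-7D, a haploid MATa laboratory strain that needs no supplied amino acids or bases, in continuous culture at 30 °C and pH 4.0 with a dilution rate of 0.06 to 0.086 per h. The labels name no deletion and no added agent. Under these conditions dissolved oxygen in the vessel rose and fell with a period of about 2 h. The 32 samples form 1 group from 1 culture, taken every 4 min with 1 array each, and the labels give each a phase angle. A turn of 360° took 115 min. The sources used here do not say what event lies at 0°. There were no replicate time points, so a p-value here speaks of scatter about a curve within this culture alone, and precision is limited by how many arrays there are.

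In yeast, RNA polymerase I makes a long precursor from which the 18S rRNA of the small subunit is cut. The U3 small nucleolar RNA pairs with that precursor, and preformed protein modules named UtpA, UtpB, UtpC and the Mpp10 complex assemble around it before GTPases, helicases and modifying enzymes act. The genes of these factors belong to the ribosome biogenesis regulon, a large set of yeast genes known to be transcribed together when cells grow quickly and to be repressed together under stress.

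Signals are intensities of the arrays after quantile normalization, and levels are their log2 after a pseudocount of 1.9 was added. Intensities of different probe sets cannot be compared as amounts, so only changes of a gene over the cycle are compared between genes. Before normalization the median signal of an array was 1435.5 to 2340.2, while S. pombe probe sets, which served to set the background, had medians of 5.4 to 9.8. Correlations between pairs of arrays were 0.712 to 0.995. Spiked poly-A control transcripts spanned 1.62 on the log2 scale over the arrays, with the lowest at 71.7° and the highest at 333.5°. The 5 a-specific mating genes looked at had median signals of 3800 to 11065. The alpha-specific genes MF(ALPHA)2, STE3 and MF(ALPHA)1 gave median signals of 73.4, 613 and 1056, also above the background.

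Transcripts of 40 of the 41 members rose to a shared maximum between 23.8° and 46.8°, fell together within about 32 min to a minimum between 96.6° and 146°, and recovered in steps. The exception was ESF1. The highest sample was that at 34.3° in 17 of the 40 and that at 46.8° in 15, while in 8 it was the last sample of the series, at 23.8° of the next turn. Averaged over members, the log2 level was 12.40 at its highest, at 34.3°, and 8.35 at its lowest, at 134°, a 16.6-fold difference in signal. That fold was 33.3 when arrays were scaled by the poly-A controls. The signal is an average over all cells of the culture, so fewer cells with these transcripts and less transcript in each cell cannot be told apart. The same mass of labelled RNA was placed on each array, so a level is a share of the measured pool.

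**Figure D1:**
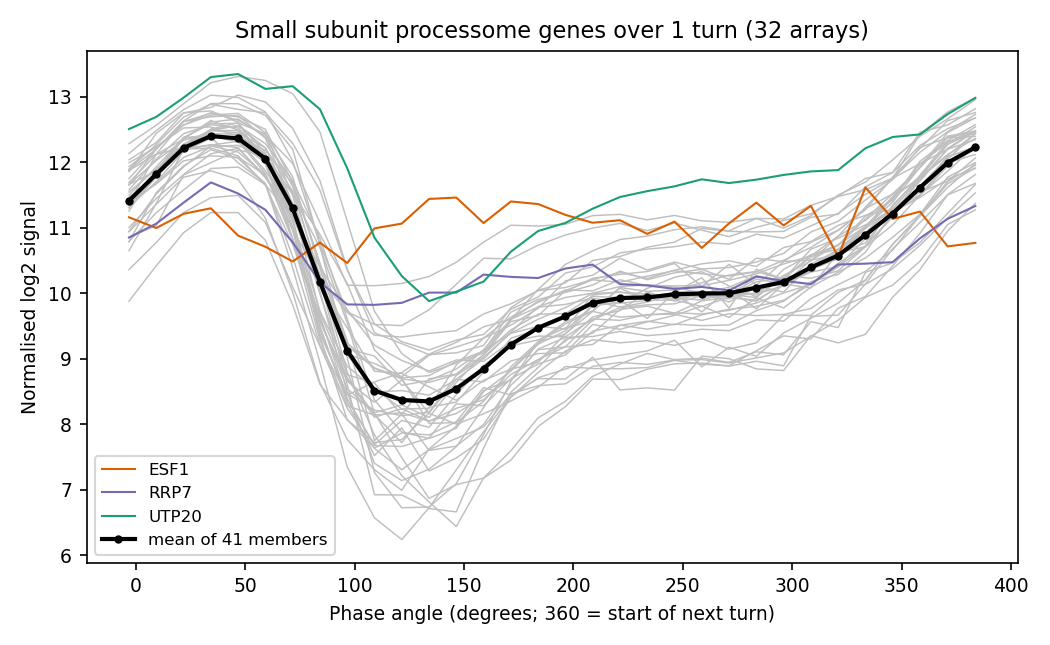
Log2 level of each member and the mean of all members in the 32 samples, against the phase angle of the labels in degrees. The mean is highest (12.40) at 34.3° and lowest (8.35) at 134°, and ESF1 does not follow it.

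The fall was the steepest stretch of the profile. The mean level went from 12.06 at 59.2° to 11.30 at 71.7°, 10.17 at 84.2° and 9.13 at 96.6°. Between neighbouring samples it fell by 1.13 from 71.7° to 84.2° and by 1.05 from there to 96.6°. The largest single step of a member, over 4 min, lay between 71.7° and 84.2° in 23 members, between 96.6° and 109° in 8, between 84.2° and 96.6° in 6 and between 59.2° and 71.7° in 3. The median of those steps was -1.35 on the log2 scale, and they ranged from -0.61 in RRP7 to -1.80 in UTP9. All members but ESF1 are counted in these steps.

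The rise was slower and broken by a pause. From the lowest sample the mean level climbed to 9.65 at 196°, and over 8 samples from 196° to 284° it stayed between 9.65 and 10.09, with a mean of 9.93. The window of that pause was chosen after the values were seen. From 309° the level climbed again, and it was 12.23 at 23.8° of the next turn. Levels on the plateau had regained a median of 40.9% of the log2 fall, from 19.7% in RRP7 to 52.6% in KRE33. UTP6 (21.8%), MPP10 (25.3%) and NAN1 (28.6%) also stayed low on the plateau, and UTP14 (50.6%) was near the upper end.

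A single cosine curve of phase fitted to each gene varied for 40 of 41 members by the moderated F test of limma at a Benjamini-Hochberg adjusted threshold of 0.05, where 91.3% of all genes tested were also called. The members' ranges were large beside those of most genes. A fitted range, from trough to peak, of at least 2-fold was found for 40 members and for 29.6% of all genes. A range of at least 4-fold was found for 38 members and 9.15% of genes, and one of at least 8-fold for 19 members and 2.6% of genes. The members' median range was 2.96 ± 0.30 on the log2 scale (jackknife SE over samples, n = 32), against a median of 0.63 over all genes. Leaving out ESF1, limma's adjusted p of the members lay between 1.58e-09 and 3.76e-05.

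The members were also close in phase. Their fitted peaks had a median of 0.24° ± 9.61 (jackknife SE, n = 32) and, without ESF1, lay between 349.6° and 22.2°. A range of at least 2-fold with a peak within 45° of that median was found for 40 members and for 12.1% of all genes. The window was centred on the members' own peaks, so these shares describe them and are no independent test of a shared phase. Neighbouring samples were not independent, with a median lag-1 autocorrelation of residuals of 0.66. The SEs given here do not allow for this autocorrelation and may be too small. After whitening for it, 40 members and 67.6% of genes passed the same limma test, and the largest adjusted p among those members was 0.00414.

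A single cosine left part of the profile undescribed. A second harmonic, which allows a steep fall and a slow rise, passed limma's adjusted test in 41 members and in 83.9% of all genes. In ESF1 that call was lost under 3 alternatives. Its median range was 1.96 in the members and 0.38 over all genes, on the log2 scale. The share of variance explained rose from 0.679 to 0.949 in the median member with it, and from 0.605 to 0.844 in the median gene. Curves with both harmonics had their maxima between 18.5° and 40° in the members other than ESF1, with a median of 26.5°, and so lay later than the single-cosine peaks and nearer to the highest samples.

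The UtpA module, also known as the t-Utp group, binds the first transcribed part of the precursor and has been linked in yeast to transcription of rDNA. All 7 of its genes varied at least 2-fold, with a median range of 3.11. UTP5 (YDR398W), a WD-repeat subunit, had signals of 263 at its lowest, 1013 at the median and 8097 at its highest, and the low samples lay around 134° and the high ones around 23.8°. Its fitted range was 3.84 ± 0.39 (SE, n = 32) with a peak at 355.5°. UTP10 (YJL109C), a long scaffold protein, had signals of 560.2, 1874 and 7570, and its range of 2.69 ± 0.30 was the smallest of the module. The other 5, UTP4, UTP8, UTP9, UTP15 and NAN1, had ranges between these values and were highest between 23.8° and 46.8°.

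UtpB is a module of WD-repeat proteins with UTP6 that contacts the precursor and U3. All 6 of its genes varied at least 2-fold, with a median range of 2.98. UTP13 (YLR222C) had signals of 139 at its lowest, 1105 at the median and 6881 at its highest, which is 49.4-fold. Its range was 3.73 ± 0.48. PWP2 (YCR057C), a core subunit, had a still larger fold of 63.5 between its extreme samples, from 73.7 at 122° to 4685 at 34.3°. UTP21 (YLR409C) had the smallest range of the module, 2.60 ± 0.37, with signals of 397, 1397 and 6225. DIP2 had the profile nearest to the rest of the members, with r = 0.997 over the 32 samples.

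The members of UtpC had the flattest profiles after ESF1. In yeast this module brings together UTP22, RRP7 and the protein kinase CK2, and UTP22 and RRP7 have also been found with the ribosomal protein gene regulator Ifh1. UTP22 (YGR090W) had signals of 1109 at its lowest, 2332 at the median and 6929 at its highest, and a range of 1.51 ± 0.25. RRP7 (YCL031C) had signals of 905 at 109°, 1234 at the median and 3312 at 34.3°, a 3.66-fold difference, and a range of 1.01 ± 0.18. Both were high and low in the same samples as the other members, with correlations to them of 0.977 and 0.908. The genes of CK2 itself, which are no members, moved little. CKA1 and CKA2, the catalytic subunits, had ranges of 0.25 and 0.37, and the regulatory subunits CKB1 and CKB2, with ranges of 0.14 and 0.11, did not pass limma's F test (adjusted p of 0.0641 and 0.188).

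The Mpp10 complex joins MPP10 to IMP3 and IMP4, which help U3 to pair with the precursor. IMP3 (YHR148W) had signals of 209 at its lowest, 1045 at the median and 5730 at its highest, with a range of 3.04 ± 0.41. IMP4 had a range of 2.72 ± 0.33. MPP10 (YJR002W) was flatter, with signals of 448.5, 842 and 3896 and a range of 2.12 ± 0.26, and its peak at 19.8° was among the latest. RRP9 (YPR137W), the WD-repeat protein that is specific to the U3 particle, had signals of 347, 977 and 5341 and a range of 2.44 ± 0.35. It was already lowest at 96.6°, in the earliest sample at which any of the 40 members had its minimum.

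BMS1, the GTPase of the particle, and its partner RCL1, related to RNA cyclases and linked to cleavage of the precursor, are known to bind each other in yeast. Their ranges were 2.81 ± 0.32 and 2.77 ± 0.32, with signals of 534, 2003 and 8356 for BMS1 (YPL217C) and 422, 1454 and 5959 for RCL1 (YOL010W), each given as lowest, median and highest. NOP14 and NOC4 form a scaffold with EMG1, a methyltransferase that modifies a pseudouridine of 18S rRNA. Here the partners differed in size. NOP14 (YDL148C) went from 84.9 at 146° to 4747 at 46.8°, with a median of 493 and a range of 3.95 ± 0.41. EMG1 (YLR186W) had signals of 726, 2150 and 8342 and a range of 2.17 ± 0.33, and the range of NOC4 lay between theirs.

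ENP2, BFR2 and LCP5 are assembly factors that meet in the particle, and their ranges were 3.32 ± 0.38, 3.42 ± 0.38 and 3.01 ± 0.42. BFR2 (YDR299W) had signals of 263 at its lowest, 802 at the median and 6109 at its highest. LCP5 (YER127W) had 125.5, 730.2 and 3969. LCP5 had the earliest fitted peak of all members other than ESF1, 349.6°.

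The largest swings belonged to a helicase cofactor and a modifying enzyme. UTP14 (YML093W) activates the helicase Dhr1, which strips U3 from the precursor. Its signal was 99.5 at 146°, 1059 at the median and 6566 at 23.8°, and its range of 4.14 ± 0.51 was the largest of the members. KRE33 (YNL132W), which acetylates cytidines of 18S rRNA and of tRNA, had signals of 104, 1302 and 7635, a 73.4-fold difference that no other member exceeded, and a range of 4.05 ± 0.54. ECM16 (YMR128W), the gene of Dhr1, had signals of 192, 1119 and 5393 and a range of 3.29 ± 0.40.

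**Figure D2:**
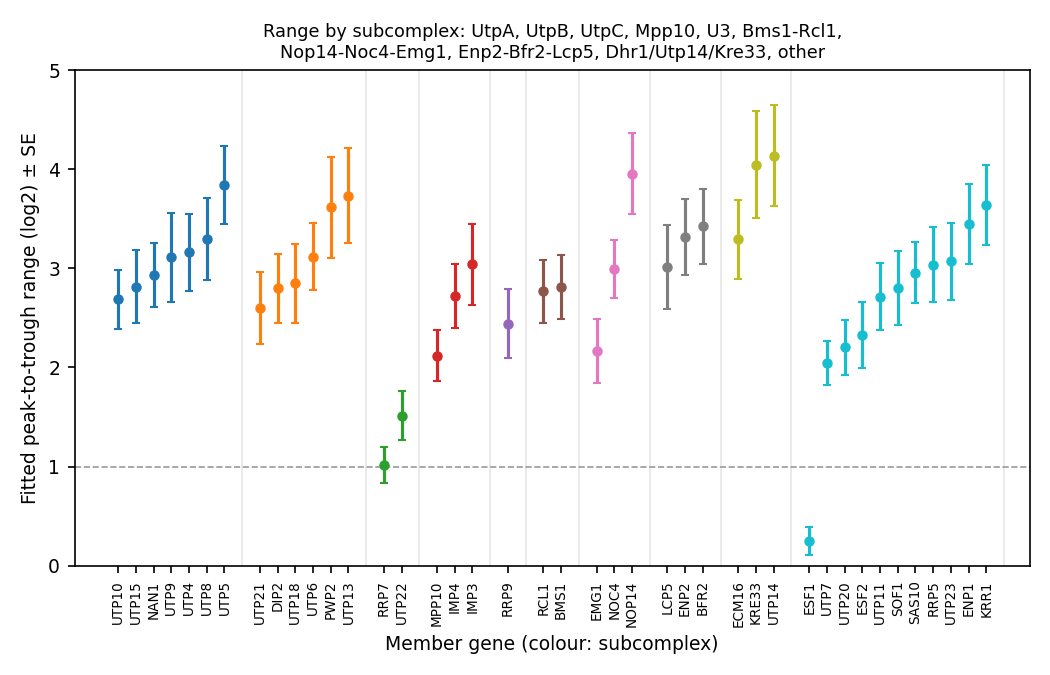
Fitted peak-to-trough range of each member on the log2 scale, with its standard error over 32 samples, grouped and coloured by complex. The dashed line marks a 2-fold range. Ranges run from 0.25 for ESF1 and 1.01 for RRP7 to 4.14 for UTP14.

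Of the 11 remaining factors, 10 varied at least 2-fold. KRR1 (YCL059C), a KH-domain protein, had signals of 115 at its lowest, 630.4 at the median and 4659 at its highest, with a range of 3.64 ± 0.41. ENP1, which stays with the small subunit precursor into the cytoplasm, had a range of 3.44 ± 0.40, and UTP23, a PIN-domain protein, one of 3.07 ± 0.39. UTP7 (YER082C), a WD-repeat protein, was among the flatter members, with signals of 643, 1421 and 4388 and a range of 2.05 ± 0.22. SAS10, RRP5, SOF1, UTP11, ESF2 and UTP20 had ranges between 2.20 and 3.04.

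ESF1 (YDR365C), a nucleolar protein found with the precursor rRNA, was the member that did not pass the single-cosine test (limma adjusted p = 0.242). Its signal was 1410 at 96.6°, 2156 at the median and 3142 at 333.5°, a 2.23-fold difference, and its fitted range was 0.25 ± 0.14. Its log2 level was at most 10.88 in the samples from 46.8° to 96.6° and at least 10.99 in those from 109° to 184°. Later in the turn high and low samples followed each other. The correlation of ESF1 with the mean of the other members was -0.23. The highest ESF1 sample was on the array with the highest poly-A control signal; the part of that array in the value was not tested. Its second harmonic passed limma's test with a range of 0.46 (adjusted p = 0.00392), but not with poly-A scaling (0.458), after whitening (0.105) or with odd samples alone (0.0641). Under the 4 scalings tried its range was between 0.25 and 0.40, and its single-cosine test missed the threshold in each.

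Each member was set against the mean of the others to ask which departed from the shared profile. By limma's test of that difference, 25 of 41 members departed, against 98.5% of all genes, and 10 members departed by at least 1 on the log2 scale, against 95.3% of all genes. The largest departures were those of ESF1 (3.07 ± 0.39), RRP7 (1.98 ± 0.22), UTP14 (1.40 ± 0.23), UTP22 (1.36 ± 0.17) and KRE33 (1.30 ± 0.27), each as a range with SE and n = 32. ESF1, RRP7 and UTP22 were flatter than the rest, and UTP14 and KRE33 were steeper. After whitening, 4 members departed by limma's test, against 92.1% of all genes. These were RRP7 (adjusted p = 0.00223), UTP22 (0.00554), ESF1 (0.00917) and MPP10 (0.0393). UTP14 (0.0953) and KRE33 (0.120) did not pass the same limma test after whitening. Correlations of the other 40 with the mean of the remaining members lay between 0.908 and 0.997, with a median of 0.985 over 32 samples from the same arrays.

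The members did not fall at the same moment. The phase at which a level first passed the midpoint between its highest and its lowest log2 value, interpolated between samples, had a median of 81.2° over the 40 members other than ESF1. These midpoints ran from 72.1° to 100.1°, a spread of 9.0 min, or little more than 2 sampling intervals. RRP7 (72.1°), RRP9 (73.1°) and UTP5 (74.2°) were the earliest. KRR1 (96.8°), RRP5 (97.1°), which acts in assembly of both subunits, and UTP20 (100.1°), a long HEAT-repeat scaffold, were the latest. UTP20 had signals of 941 at its lowest, 3652 at the median and 10431 at its highest, and RRP5 had 441, 2230.2 and 10172. At 84.2° both were above their own midpoints, while RRP9 was below its own. By complex, the median midpoint was 79.0° in UtpA (74.2° to 89.9°), 81.6° in UtpB (76.9° to 84.9°) and 89.0° in the group of ECM16, UTP14 and KRE33 (88.3° to 90.9°). UtpA and UtpB overlapped, and no member of UtpB fell as late as any of that last group. The order was similar under other scalings, with rank correlations to it of 0.980 for the deposited values, 0.976 for array medians and 0.951 for poly-A controls, over the same 40 genes.

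**Figure D3:**
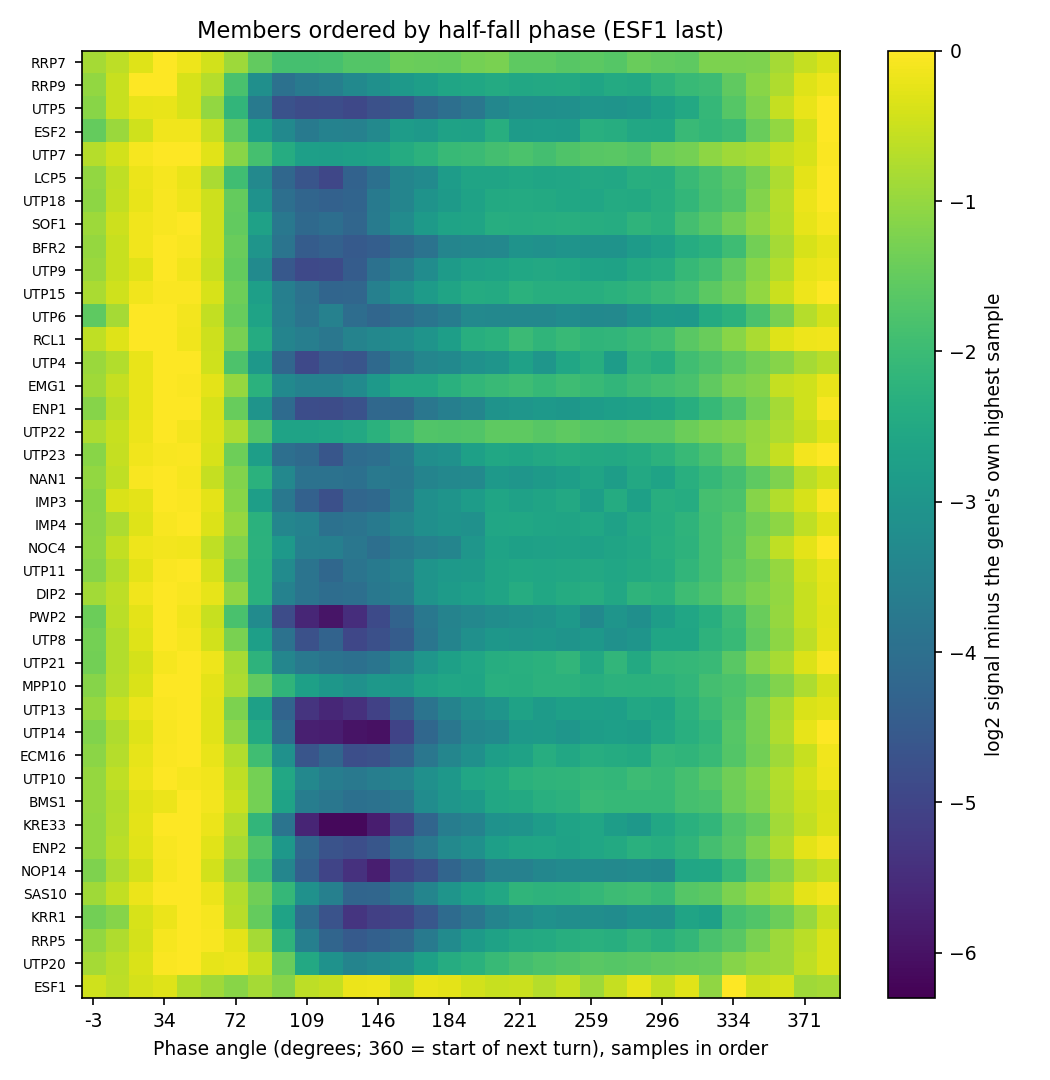
Log2 signal of each member (rows) in the 32 samples in order of phase (columns, degrees), relative to the gene's own highest sample. Rows run from the earliest midpoint of the fall, called half-fall in the title, at 72.1° (RRP7) to the latest at 100.1° (UTP20), and ESF1, which lacks the shared pattern, is last.

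Late midpoints were more frequent among the longer members. Over the 40 members, gene length on the log2 scale and the midpoint had r = 0.53 and rho = 0.54, as a description across genes of 1 culture that share arrays. Among 37 members shorter than 5000 bp, r was 0.33 and rho 0.44, so part of the relation rested on UTP10 (5310 bp), RRP5 (5190 bp) and UTP20 (7482 bp). The median midpoint was 78.5° for 23 members under 2000 bp, 81.9° for 10 members of 2000 to 3000 bp and 90.4° for 7 longer ones. The fall passed its midpoint after 88° in 2 of 23, 3 of 10 and 6 of 7 of these. UTP22 (3714 bp) was the long member that fell early, at 79.3°, and KRR1 (951 bp) was a short one that fell late. A set of 544 other genes had a range of at least 2-fold in the same window, a known length and a first sample not below their midpoint. In these, r was 0.19 and rho 0.15. Their median midpoints by the same length groups were 81.9° (441 genes), 85.6° (72 genes) and 90.4° (31 genes), so they too were later in longer genes. Whether the members' trend differs from theirs was not tested. The assembly factor gene REA1 (14733 bp), no member, passed its midpoint at 128.6°. The length bins, the limit of 88° and REA1 were chosen after the values were seen.

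**Figure D4:**
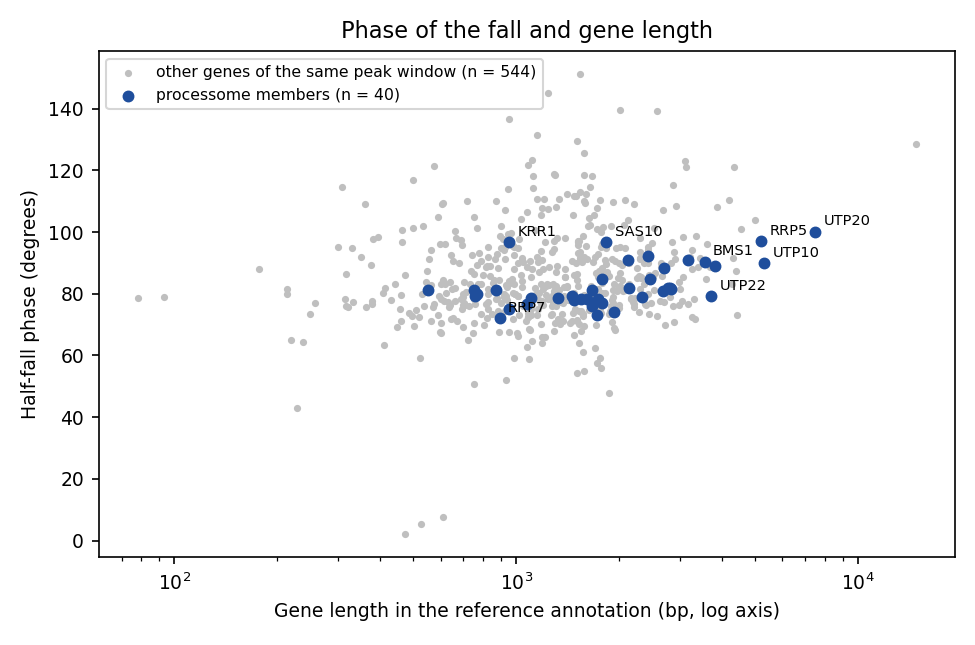
Phase of the midpoint of the fall (half-fall phase, in degrees) against gene length in bp on a log axis, for 40 members and for other genes. The other genes are those of the same window whose first sample was not below their midpoint. Of the 7 members of at least 3000 bp, 6 lie above 88°.

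The first 3 and the last 3 samples lay at matching phases 1 turn apart, but each of the last lay 1.57° to 1.93° later than its match, on the rising part of the profile. The difference, end minus start, had a median of 0.13 on the log2 scale in the members and 0.01 over all genes, and 32 of 41 members were higher at the end, against 52.6% of all genes. With the first turn interpolated to the later phases, the members' median was 0.08 and 30 were higher, against 52.4% of all genes. No member passed limma's adjusted test, where 0.0186% of all genes did, and the smallest adjusted p of a member was 0.552. At an unadjusted p under 0.05, 0 members were called, against 14% of all genes. That test did not pair the samples by phase. The rise within each set of 3, from 11.42 to 12.22 in the members' mean over the first, therefore counted as scatter. Its 0 calls cannot show that the members returned to the same level. With the matched phase as a block, 12 members were called, all higher at the end, while 25.2% of all genes were called and 13.3% were called as higher.

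Among those 12, the largest differences were in ESF2, UTP21 and UTP14. ESF2 (YNR054C), a cofactor of the helicase Dbp8, had levels of 9.88, 10.42 and 10.93 in the first samples and 10.36, 10.95 and 11.38 in the last, a difference of 0.49 ± 0.35 without the block. UTP21 and UTP14 each differed by 0.42, with SE of 0.30 and 0.28, also without the block. These SEs count the rise within each set as scatter and are not the errors of the test with the block. Neither the differences nor the calls with the block were corrected for the later phases of the last samples. The other 9 were UTP5, UTP9, UTP15, UTP18, NOC4, ENP2, LCP5, UTP23 and ENP1. Deposited array medians of the last 3 samples were between 10.49 and 10.72 on the log2 scale, below the 10.99 to 11.12 of the first 3; their part in the difference was not tested.

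In lists of other genes that assemble ribosomes, each gene with a range of at least 2-fold peaked within 45° of the members' median peak. Of all genes tested, 91.3% passed the F test, 29.6% varied at least 2-fold and 12.1% did so with a peak in that window. The core proteins of small nucleolar particles varied at least 2-fold in 8 of 8 genes, with a median range of 2.63, led by GAR1 (2.86), NOP1 (2.81) and NOP56 (2.74). Their fall came later than the members', with a median midpoint of 94.4° that was not tested against 81.2°. Of 18 other early 40S factors, 16 passed the F test and 14 varied at least 2-fold, led by NSR1 (4.31), RRP36 (3.88) and MRD1 (3.61). All 8 helicases of 40S assembly varied at least 2-fold, with a median range of 3.52, led by DHR2 (3.87), HAS1 (3.69) and FAL1 (3.60).

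Of 13 late 40S factors, which act in later maturation of the small subunit, all 13 varied, against 91.3% of all genes. At least 2-fold ranges were found for 11 of them, against 29.6% of all genes, led by LTV1 (3.54), RRP12 (3.12) and TSR1 (3.07). The 44 assembly factors of the large subunit all varied at least 2-fold, with a median range of 2.98 beside the members' 2.96, led by RIX1 (4.23), SSF1 (4.08) and MAK16 (3.98). Genes for the proteins of the small subunit itself had smaller ranges. Of 57 listed 40S ribosomal protein genes 53 were tested. Of these, 52 varied, against 91.3% of all genes, and 6 did so at least 2-fold, against 29.6%. The median range of the 53 was 0.48, beside 0.63 over all genes. The largest were RPS26B (1.81), RPS9A (1.38) and RPS22A (1.13), and RPS23A, with 0.04, did not pass (limma adjusted p = 0.5). Signals on this list were high, with medians of 5056 in RPS26B, 7564 in RPS22A and 18085 in RPS23A. Whether signal near the top of the scale narrowed these ranges was not tested. Some of the probe sets, that of RPS23A among them, are of a type that can match several genes.

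**Figure D5:**
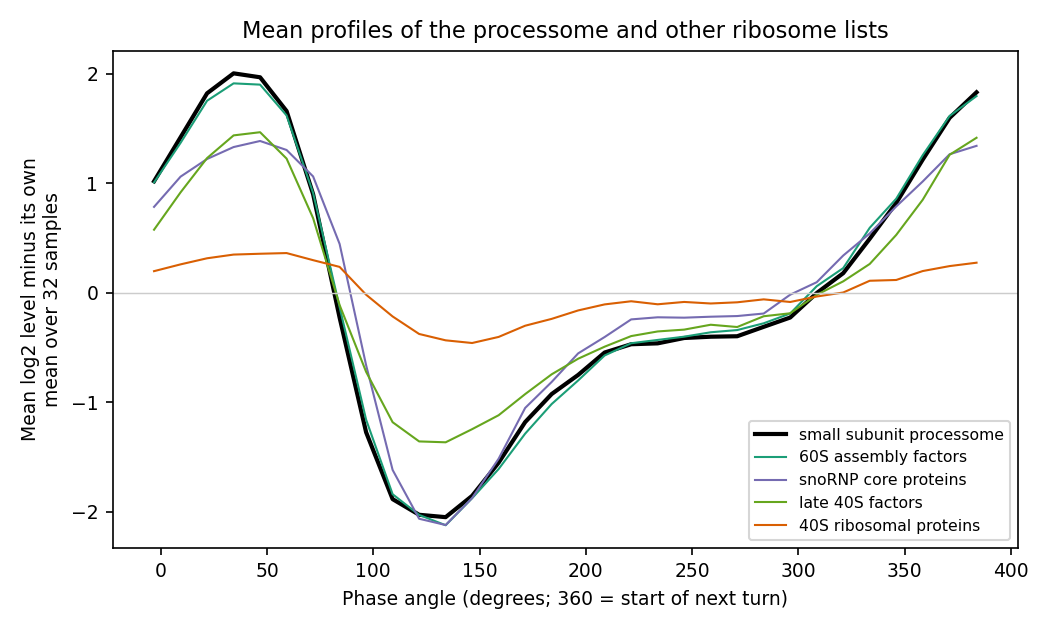
Mean log2 level of the members and of other gene lists of ribosome assembly in the 32 samples, each relative to its own mean, against phase in degrees. The assembly lists rise and fall with the members. The 40S ribosomal protein genes move within a narrower band. Before its own mean was subtracted, their mean level was highest (13.90) at 59.2° and lowest (13.08) at 146°.

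Regulators of these genes were less uniform. All 8 varied, against 91.3% of all genes, and 2 of them did so at least 2-fold, against 29.6% of all genes. Their median range was 0.57. TOD6, which encodes a repressor that binds promoters of ribosome biogenesis genes, ranged over 3.78 and peaked at 12.9°, on the members' side of the cycle. IFH1, the coactivator of ribosomal protein genes, had 2.55 with a peak at 356.4°. STB3, a repressor of the same regulon, had 0.70 and peaked on the opposite side, at 209.5°. DOT6, on the same list, had 0.26 and peaked at 230.8°, also away from the members.

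On the chromosomes, 13 of 41 members (31.7%) had a directly adjacent gene that varied at least 2-fold in the same window, against 21.2% of 5374 genes. In 4 members (9.76%, against 4.69% of genes) an adjacent gene was itself on one of the assembly lists. These pairs were UTP9 with RIX1, NOC4 with RRP15, LCP5 with NSA2 and ESF2 with NOG2. UTP13 lay between RSA3 and IFH1. Adjacent genes were taken from the order in the S. cerevisiae R64 gene table, and no coordinates are given because the array annotation names no genome build.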

How the data were processed

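Oligo(dT)-primed cDNA of total RNA was the template for labelled cRNA, of which each Affymetrix Yeast Genome 2.0 array received 5 µg, per the labels. The authors deposited 1 linear intensity per probe set and array. GCOS is the software named in the submitters' processing notes, without its version, algorithm or scaling. The file held 10928 probe sets, with 5498 for S. cerevisiae and 1746 for S. pombe.

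Intensities plus 1.9, the 10th percentile of all values, were taken to log2 and quantile normalized over S. cerevisiae probe sets, because array medians spanned 0.70. The brightest probe set stood for each gene, and a gene was tested if its mean exceeded the background (4.44), set at percentile 95 of S. pombe signals. R 4.3.3 and limma 3.58.1 fitted cosine and sine terms of the labelled phase to all 5377 genes. Benjamini-Hochberg adjustment with a threshold of 0.05 was used. The fits were tried on simulated data whose scatter was independent between samples. Such data cannot show how the calls behave under the autocorrelation of these samples. Alternatives were no scaling, scaling by array medians or poly-A controls, other pseudocounts and filters, the mean of probe sets, time or array number as a term, whitening, odd or even samples, 2 harmonics, and leaving out samples.

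The members and lists were chosen with earlier results of these data known. All members may be named. Values in full were given for the 5 largest and 5 smallest ranges, the extremes of each complex, the 3 earliest and 3 latest midpoints, members that failed the F test, the 5 largest departures, and up to 3 genes with the largest range in each list, with genes that failed where there were at most 5. The plateau window, length groups, exclusion of ESF1 from midpoints the interpolation to matching phases and the rule for midpoints of other genes were chosen after the values were seen. The first and last 3 samples share a phase, not a replicate number.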

Additional observations from a re-analysis of the deposited data

Results flagged for a closer look

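Control probe sets of rRNA gave signal although cDNA was primed with oligo(dT). The brightest S. cerevisiae 18S rRNA control probe set, the RNA whose precursor the processome handles, had a median intensity of 3151.5 over 32 arrays, against a background of 19.9 from S. pombe probe sets. It ranged from 1235 at 71.7° to 5088 at 333.5°, and the same arrays had the lowest and the highest poly-A control signal. Of 8 such 18S probe sets, 6 were lowest at 71.7°. No amount of 18S rRNA is read from these values.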

How the results depend on the processing

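The 40 members that varied, and the failure of ESF1, were the same in all 615 combinations of member and setting that were run, with 0 weaker, stronger or reversed. These settings reused the same arrays and are not independent checks. The mean of probe sets and the other filters left the members' values unchanged, since each member had 1 probe set and normalization came before the filter. Without pairing by phase, 0 members differed between end and start, and 0 to 0 when a sample was left out. The number was 1 with deposited values and 6 with poly-A scaling, and 12 with a block for matched phase, by limma's adjusted test. The same settings called 44.5%, 76.1% and 25.2% of all genes, so the member shares lay below the share of all genes with the first and second of these. Members that departed from the shared profile numbered 25, but 4 after whitening, 10 with odd samples, 10 with even samples and 39 with 2 harmonics, against 92.1%, 95.6%, 95.6% and 99.7% of all genes. A second harmonic was called in 40 members with poly-A scaling, whitening or odd samples (77.7%, 72.8% and 66.7% of all genes), without ESF1. A 2-fold range was found for 39 with a linear time term or without the last 3 samples (29.1% and 28% of all genes), without ESF1 and RRP7. The median midpoint of the fall was 82.8° with the deposited values and 85.6° with poly-A scaling, and the fold of the mean profile was 23.9, 21.9 and 33.3 with the deposited values, array median scaling and poly-A scaling. The median range was 3.43 with poly-A scaling and 3.97 with 2 harmonics, which also placed the median peak at 26.5°. At least 8-fold ranges numbered 19 to 32 members across the 4 scalings. The median of all genes moved by 0.70 with the deposited values and 1.27 with poly-A scaling. The cause of these changes was not tested. The planned search of promoters for motifs was not run, because no promoter sequences were used here. One culture and 32 arrays limit what can be said, and the lowest sample of any member was 1.80 above the S. pombe background on the log2 scale.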
